A study of Arabidopsis thaliana with 21 samples.

Results

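The ABCC genes encode ATP-binding cassette transporters of the multidrug-resistance-associated type. The 10 described here, ABCC1, ABCC2, ABCC3, ABCC4, ABCC5, ABCC6, ABCC7, ABCC8, ABCC10 and ABCC14, were taken by gene identifier from the 21156 gene loci of the table, and all 10 passed the filter on low values (CPM, reads scaled to the library total, of 1 or more in 3 or more libraries). ABCC6 was chosen by its measured rise after LiCl, in LiCl and PAP + LiCl leaves against control leaves of these same libraries. Its values are therefore descriptions without a test, except in PAP + ATP against PAP and PAP + ATP against ATP leaves. ABCC3 and ABCC7 flank it on chromosome 3. Another 5 ABCC genes of Arabidopsis were in the table and are used for comparison.

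The 21 libraries held polyadenylated RNA of excised leaves from 35-day-old Arabidopsis thaliana, all F1 hybrids of Col-0 and Ler, that took up a solution through the petiole. The 7 groups of 3 libraries received PAP + ATP + LiCl, PAP + LiCl, LiCl, PAP + ATP, ATP, PAP, or the buffer alone (control). The buffer, shared by all groups, held PIPES, citrate, KCl and sucrose. LiCl was used at 100 mM and ATP at 1 mM. The sample labels give 100 µM PAP and the treatment notes other doses, so the PAP dose is in doubt, and no feeding time is given. ATP and LiCl were combined only together with PAP. Libraries held 19190821 to 27155547 reads assigned to genes, so that 1 read was worth 0.0368 to 0.0521 CPM. The labels do not say whether the 3 libraries of a group came from separate plants, so p-values measure the spread between these libraries.

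ABCC proteins use ATP to move conjugated or otherwise bulky anions across membranes, in plants mostly into the vacuole. Known cargoes include glutathione conjugates, phytochelatin-metal complexes, folates, phytate, chlorophyll catabolites and the glucose ester of abscisic acid. Lithium inhibits SAL1, the phosphatase that degrades PAP (3'-phosphoadenosine 5'-phosphate), and PAP inhibits the XRN exoribonucleases. LiCl at this dose is also a salt.

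The 3 clustered genes lie head to tail on the minus strand of chromosome 3 (coordinates from TAIR10.1). In the direction of transcription, SERAT2;2 (AT3G13110), which encodes a serine acetyltransferase of cysteine synthesis, comes first, at 4214399 to 4216302. ABCC7 (AT3G13100) follows at 4208729 to 4214530 and shares 132 exonic bases with the end of SERAT2;2. ABCC6 (AT3G13090) lies at 4202811 to 4208261, 467 bases past the end of ABCC7. That gap holds AT3G00310, a gene annotated as miscellaneous RNA on the same strand at 4208287 to 4208676. ABCC3 (AT3G13080) lies at 4195770 to 4201734, 1076 bases past the end of ABCC6. Few exonic windows of 50 bases were shared: 42 of the 4644 in ABCC6 (0.904%) also occurred in ABCC7, and none of ABCC3 occurred in another member. ABCC7 had more reads than ABCC6 in control leaves, so reads from shared windows could be part of the few ABCC6 reads there. This was not tested. Reads in the stretch shared by ABCC7 and SERAT2;2 cannot be assigned to either, and the kit did not keep the strand.

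The 250 bases before the annotated starts of ABCC6 and ABCC3 are shown because these neighbours had unlike levels across the groups. Both are RefSeq TAIR10.1 sequences read on the minus strand, ABCC6 from chr3:4208262-4208511 and ABCC3 from chr3:4201735-4201984. Capitals mark the only match to any motif searched.
ABCC6: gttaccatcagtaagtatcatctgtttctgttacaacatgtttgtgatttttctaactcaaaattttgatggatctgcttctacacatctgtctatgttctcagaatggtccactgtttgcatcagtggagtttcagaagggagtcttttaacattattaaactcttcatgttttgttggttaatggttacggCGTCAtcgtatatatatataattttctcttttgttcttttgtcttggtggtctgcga
ABCC3: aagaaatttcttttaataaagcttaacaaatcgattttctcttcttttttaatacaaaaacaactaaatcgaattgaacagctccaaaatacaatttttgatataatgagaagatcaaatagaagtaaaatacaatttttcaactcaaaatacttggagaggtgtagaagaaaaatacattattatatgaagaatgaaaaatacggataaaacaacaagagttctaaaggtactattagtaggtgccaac
The match in ABCC6 is the TGA element TGACG, the core bound by TGA-type bZIP factors, on the opposite strand and 57 bases before the start. TGACG occurred on either strand in 18.6% of the 27443 windows of this length before protein-coding genes. Among the other members, it also occurred before ABCC1 (1 match) and ABCC5 (2 matches). The other motifs searched on both strands were the W-box core TTGAC (44.9% of windows), the abscisic acid response core ACGTG (22.9%), the G-box CACGTG (6.49%), which contains that core, and the sulphur response core GAGAC (25.8%). None of these 4 was found in the ABCC6 or the ABCC3 window. The ABCC6 window overlaps AT3G00310, and that of ABCC7 lies within SERAT2;2 and is not shown.

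**Figure D1:**
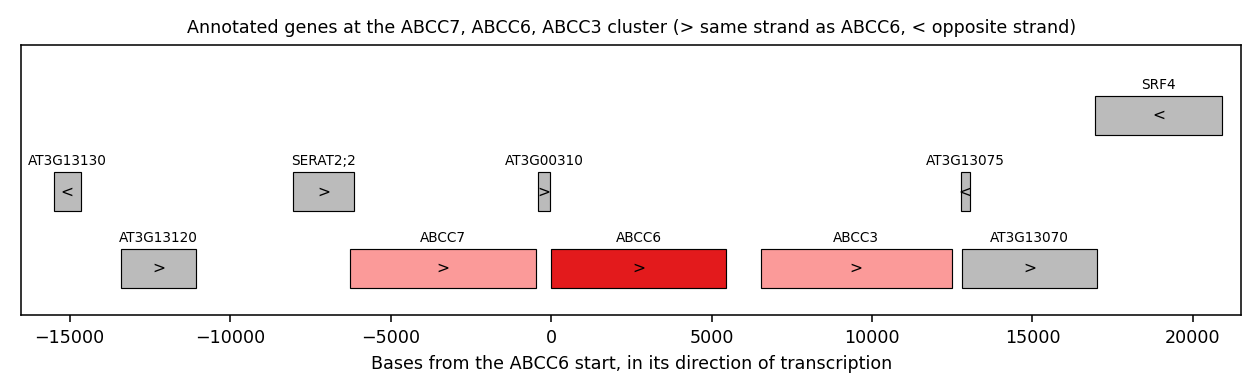
Map of the ABCC7, ABCC6 and ABCC3 cluster with the genes beside it, drawn to scale by distance in bases from the start of ABCC6 in its direction of transcription. Boxes are genes, stacked only to keep them apart, with arrowheads for strand. ABCC7 ends 467 bases before ABCC6 begins, and ABCC6 ends 1076 bases before ABCC3 begins.

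ABCC6 had few reads in control leaves and was high in LiCl and PAP + LiCl leaves, but not in PAP + ATP + LiCl leaves. Its level was 4.61, 2.48 and 12.4 CPM in PAP + ATP + LiCl leaves. In PAP + LiCl leaves it was 37.6, 72.1 and 56.3 CPM, and in LiCl leaves 28.9, 26.8 and 26.3 CPM. These 2 groups did not overlap each other or the first. Without LiCl it was 2.73, 8.66 and 4.17 CPM in PAP + ATP leaves, 3.47, 1.74 and 7.93 CPM in ATP leaves, and 0.782, 1.58 and 1.29 CPM in PAP leaves. Control leaves had 0.333, 0.528 and 0.416 CPM, which stand for 7, 13 and 9 reads. The 6 libraries fed LiCl without ATP were above all 15 others. The 3 control libraries were below all 18 others, and the PAP libraries below all ATP-fed ones. The groups with ATP overlapped one another. The LiCl, PAP + LiCl and control libraries chose ABCC6, so their separation is a description. How many of all genes separate in this way was not counted.

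As ratios of mean CPM, ABCC6 was 64.2-fold higher in LiCl than in control leaves and 45.5-fold higher in PAP + LiCl than in PAP leaves, but 1.25-fold higher in PAP + ATP + LiCl than in PAP + ATP leaves. On the log2(CPM + 0.5) scale, which understates changes of low genes, these differences were 4.91 ± 0.50, 5.00 ± 0.50 and 0.17 ± 0.50 (SE). The last has a 95% interval of -0.88 to 1.22, and its sign turned without PAP + ATP library 1 (-0.17) or PAP + ATP + LiCl library 3 (-0.41). Its ratio of means was 0.683 without PAP + ATP + LiCl library 3 and 1.88 without PAP + ATP library 2. The difference with ATP was positive from control leaves and negative from PAP + LiCl leaves. ABCC6 was chosen for being low in control and high in PAP + LiCl leaves, so both signs lie where that choice favours them. These comparisons also differ in PAP, and both are descriptions. ABCC6 was 10.3-fold higher in ATP than in control leaves (log2 difference 2.19), and in PAP + ATP + LiCl leaves it was at 0.117 of its mean in PAP + LiCl leaves (log2 difference -3.22). The ratio over control was 6.12 without ATP library 3, and the share of the PAP + LiCl mean was 0.0640 without PAP + ATP + LiCl library 3. The ABCC6 mean was 2.86-fold higher in PAP than in control leaves (log2 difference 0.87 ± 0.50). It was 2.02-fold higher in PAP + LiCl than in LiCl leaves, with log2 differences of 0.74 to 1.21 when single libraries were left out. Both are given as descriptions, and 0% of all genes tested passed in either comparison. Across the 7 group means of log2(CPM + 0.5), ABCC6 spanned 5.87.

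The comparisons of PAP + ATP with PAP and with ATP leaves do not contrast LiCl and were tested. Their group means share no library with the groups that chose ABCC6. The spread in the fit came from all 21 libraries, those that chose ABCC6 included. These p-values are therefore not independent of that choice. Neither comparison passed. In PAP + ATP against PAP leaves ABCC6 differed by 1.62 ± 0.50 on the log2 scale, a 4.26-fold ratio of means (2.83 without PAP + ATP library 2), with an adjusted p of 0.0571 (limma, Benjamini-Hochberg over all genes). This value lay close to the threshold. The adjusted p was 0.0323 with edgeR and 0.00259 with DESeq2 on the recovered reads, 0.0354 after median-of-ratios scaling and 0.0481 with a pseudocount of 0.1. It was 0.0476 without ATP library 2, 0.0374 without ATP library 3 and 0.04 without PAP + ATP + LiCl library 3, with the change at 1.62 in each. Those 3 libraries are in neither compared group. These 7 settings passed and the other 22 did not. With single libraries left out the change ran from 1.21 to 1.96 and the adjusted p reached 0.201. In PAP + ATP against ATP leaves the difference was 0.29 ± 0.50 (adjusted p = 0.828). The sign of that difference turned without ATP library 2 (-0.16) and without PAP + ATP library 2 (-0.12).

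**Figure D2:**
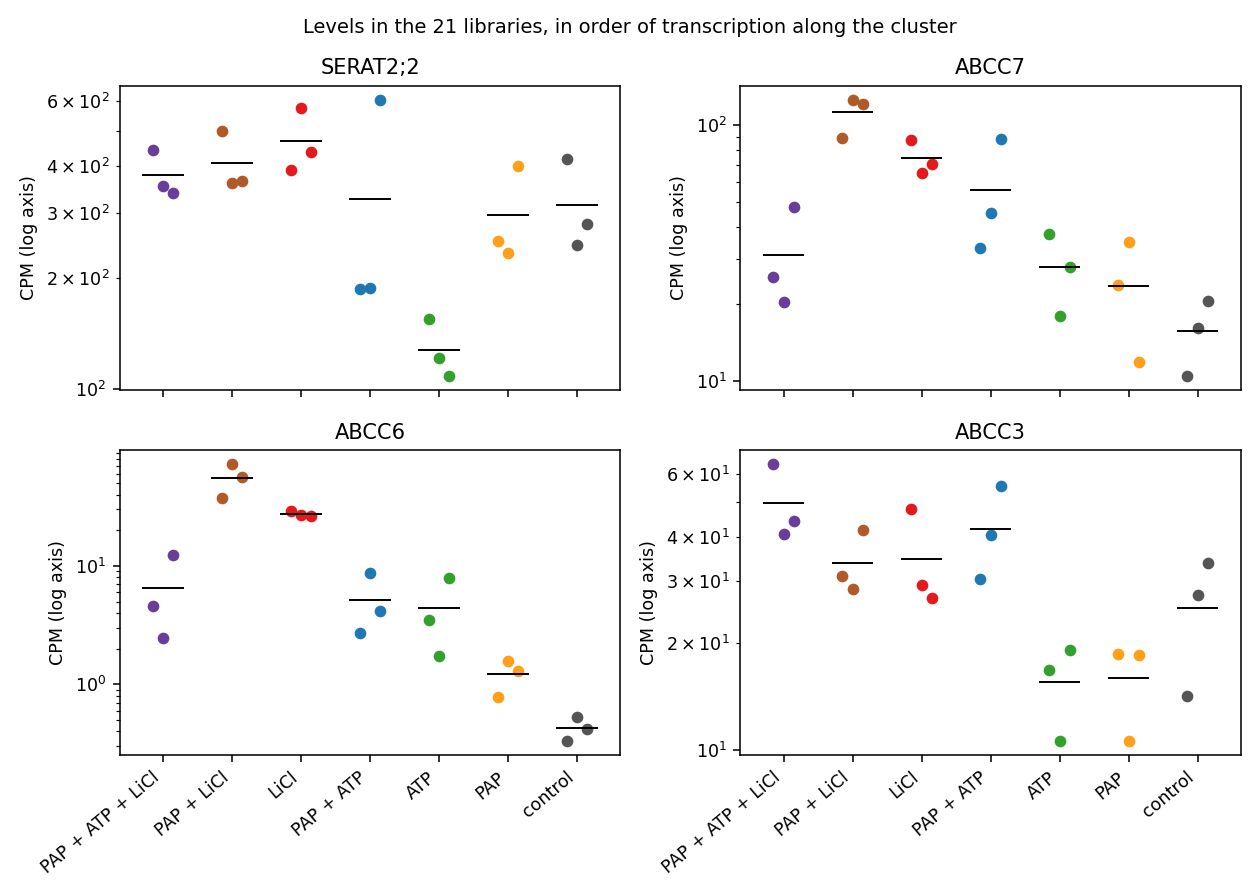
Level of SERAT2;2, ABCC7, ABCC6 and ABCC3 in CPM (log axes, 1 panel a gene) in each library of the 7 feeding groups, PAP + ATP + LiCl at the left and control at the right; points are libraries and lines group means. ABCC6 lies at 26.3 to 72.1 CPM in the LiCl and PAP + LiCl libraries and at 0.333 to 12.4 CPM in the others.

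ABCC7, the gene before ABCC6, was high in the same LiCl groups but had a much higher level elsewhere. Its role is less well described than that of ABCC1 or ABCC2. It had 25.6, 20.3 and 47.7 CPM in PAP + ATP + LiCl leaves, 89.5, 126 and 121 CPM in PAP + LiCl leaves and 87.5, 65.3 and 70.3 CPM in LiCl leaves. It had 33.2, 45.2 and 88.7 CPM in PAP + ATP leaves, 37.5, 17.9 and 27.9 CPM in ATP leaves, 23.8, 34.9 and 11.9 CPM in PAP leaves and 10.4, 16.1 and 20.5 CPM in control leaves. The LiCl and control libraries did not overlap, nor did the PAP + LiCl and PAP libraries. How many of all genes separate in this way was not counted, so no weight rests on it. The PAP + ATP + LiCl and PAP + ATP libraries overlapped. The PAP + ATP library at 88.7 CPM was above every LiCl library.

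ABCC7 rose in LiCl against control leaves by 2.25 ± 0.42 on the log2 scale (adjusted p = 0.00163), and in PAP + LiCl against PAP leaves by 2.34 ± 0.42 (adjusted p = 0.000843). Both calls held with any single library left out, the largest adjusted p being 0.0118 and 0.00555. In PAP + ATP + LiCl against PAP + ATP leaves the difference was -0.80 ± 0.42 and did not pass (adjusted p = 0.262). The difference between these LiCl responses in PAP-fed leaves, with minus without ATP, was -3.14 ± 0.59, with an adjusted p of 0.0596. It passed with edgeR (0.0356), DESeq2 (1.91e-05) and after median-of-ratios scaling (0.0194), and in limma without PAP + ATP + LiCl library 3 (-3.49, 0.0488). In the other 25 settings it did not pass. With single libraries left out the adjusted p reached 0.221 and the difference ran from -3.49 to -2.72. None of the 9 members other than ABCC6 passed it in limma, where 0.0285% of all genes tested did, 5 genes in all (0.0057% positive and 0.0228% negative). For ABCC6 the same difference was -4.83 ± 0.70, given as a description.

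ABCC3, downstream of ABCC6, did not share that pattern. Its protein is a vacuolar transporter of glutathione conjugates and chlorophyll catabolites, as shown by expressing it in yeast. It had 64.0, 40.6 and 44.2 CPM in PAP + ATP + LiCl leaves, 31, 28.5 and 41.8 CPM in PAP + LiCl leaves and 47.8, 29.2 and 26.9 CPM in LiCl leaves. It had 30.5, 40.4 and 55.4 CPM in PAP + ATP leaves, 16.8, 10.6 and 19.2 CPM in ATP leaves, 18.7, 10.6 and 18.6 CPM in PAP leaves and 14.2, 27.5 and 33.6 CPM in control leaves. The highest group means were those of PAP + ATP + LiCl and PAP + ATP leaves, where ABCC6 was at most 12.4 CPM.

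ABCC3 rose in PAP + LiCl against PAP leaves (log2 1.08 ± 0.34, adjusted p = 0.0311) and in PAP + ATP against PAP leaves (1.37 ± 0.34, adjusted p = 0.0283). The first call was lost without PAP library 2 (0.82, adjusted p = 0.124), PAP + LiCl library 1 (1.13, 0.0584) or PAP + LiCl library 3 (0.92, 0.125). The second was lost without any 1 of PAP libraries 1 and 2 (adjusted p 0.0558 and 0.0958) and of PAP + ATP libraries 1, 2 and 3 (0.0667, 0.0767 and 0.0553), with changes of 1.11 to 1.58. It was also lost in a fit of the compared groups alone (0.123). In LiCl against control leaves the difference was 0.50 and did not pass (adjusted p = 0.333).

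Within each library, the level of ABCC6 per kilobase of exon was set against that of its neighbours. As a percentage of ABCC7, it was 12.9 to 27.4 in PAP + ATP + LiCl libraries, 44.4 to 60.6 in PAP + LiCl libraries and 35.0 to 43.4 in LiCl libraries. It was 4.98 to 20.3 in PAP + ATP libraries, 9.80 to 30.1 in ATP libraries, 3.48 to 11.5 in PAP libraries and 2.14 to 3.48 in control libraries. ABCC6 was thus below ABCC7 in every library, by a share that varied between groups. Against ABCC3 it passed 100% in PAP + LiCl libraries (145 to 303) and was 72.4 to 118 in LiCl libraries, 7.30 to 33.5 in PAP + ATP + LiCl libraries and 1.48 to 2.82 in control libraries.

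Of AT3G13110, AT3G13070, AT3G13120 and AT3G13065 beside the cluster, only the last rose in LiCl against control leaves, where 7.27% of all genes tested rose. Values for AT3G13075, AT3G13130 and AT3G00310 are not given here. SERAT2;2 did not pass in LiCl against control leaves (log2 0.59 ± 0.36, adjusted p = 0.277). It fell in ATP against control leaves (-1.27 ± 0.36, adjusted p = 0.043), where 5.46% of all genes tested fell. That call was close to the threshold and is not given for other settings. Falls over all genes in ATP against control leaves went from 964 to 400 after median-of-ratios scaling. AT3G13070, downstream of ABCC3, and AT3G13120, upstream of SERAT2;2, did not pass in either comparison. SRF4 (AT3G13065), a receptor-like kinase gene on the plus strand, rose in LiCl against control leaves (1.70 ± 0.44, adjusted p = 0.0137) and in PAP + LiCl against PAP leaves (1.5 ± 0.44, adjusted p = 0.0215). In the latter comparison 9.67% of all genes tested rose.

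Of the 9 members other than ABCC6, 4 rose in LiCl against control leaves (ABCC1, ABCC2, ABCC4 and, in the cluster, ABCC7) and none fell, where 17.6% of all genes tested passed, 7.27% rising and 10.4% falling. Their median difference was 0.82 on the log2 scale, against -0.03 over all genes tested. In PAP + LiCl against PAP leaves 5 of the 9 rose, the same 4 and ABCC3, where 21.6% of all genes passed, 9.67% rising and 12% falling (median 0.78 against -0.02 over all genes). In PAP + ATP + LiCl against PAP + ATP leaves none of the 9 passed, where 9.44% of all genes passed, 4.6% rising and 4.84% falling. There 1 of the 9 had an unadjusted p under 0.05, ABCC14, and edgeR called 0 and DESeq2 1. The members were chosen with earlier results of these data known. Of the 5 ABCC genes outside the set, 1 rose and 0 fell in LiCl against control leaves (median -0.04). In PAP + LiCl against PAP leaves 1 of the 5 rose and 1 fell (median 0.53). In PAP + ATP + LiCl against PAP + ATP leaves 2 of the 5 fell and 0 rose (median -0.25). In bulk leaf, fewer cells of a type and less RNA per cell cannot be told apart.

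ABCC1 and ABCC2 encode vacuolar transporters of phytochelatin-metal complexes, and both have also been linked to the glucose ester of abscisic acid. ABCC2 had 30.2, 33.7 and 31.8 CPM in PAP + ATP + LiCl leaves, 28.3, 27.0 and 33.6 CPM in PAP + LiCl leaves, 48.1, 45.1 and 31.4 CPM in LiCl leaves and 33.7, 22.6 and 30.2 CPM in PAP + ATP leaves. It had 18.0, 17.4 and 22.6 CPM in ATP leaves, 20.6, 21.7 and 13.1 CPM in PAP leaves and 12.2, 18.0 and 22 CPM in control leaves. It rose by 1.25 ± 0.24 in LiCl against control leaves (adjusted p = 0.00202), and the call held with any single library left out (at most 0.0139). ABCC1 averaged 89.2 ± 17.1 CPM in PAP + ATP + LiCl leaves, 92.1 ± 14.6 in PAP + LiCl leaves, 113 ± 10.5 in LiCl leaves, 70.7 ± 8.51 in PAP + ATP leaves, 46.9 ± 13.9 in ATP leaves, 43.4 ± 12.9 in PAP leaves and 50.8 ± 26.8 in control leaves (SD, n = 3 each). It rose in LiCl against control leaves by 1.33 ± 0.35 (adjusted p = 0.0148), a call lost without control library 1 (0.77, adjusted p = 0.0672) or LiCl library 2 (1.28, 0.0527) and in a fit of those groups alone (0.127).

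ABCC4, a plasma membrane transporter linked to stomatal opening and folate transport, averaged 9.93 ± 2.59 CPM in PAP + ATP + LiCl leaves, 11.8 ± 3.70 in PAP + LiCl leaves and 11.6 ± 3.12 in LiCl leaves, against 6.73 ± 1.34 in PAP + ATP leaves, 10.5 ± 3.47 in ATP leaves, 5.26 ± 2.83 in PAP leaves and 5.38 ± 0.79 in control leaves (SD, n = 3 each). The ATP leaves were thus at the level of the LiCl-fed ones. ABCC4 rose in LiCl against control leaves by 1.02 ± 0.34 (adjusted p = 0.0441). This call was close to the threshold: the adjusted p was 0.0504 to 0.169 and the change 0.85 to 1.09 without any 1 of control libraries 1, 2 and 3, ATP libraries 1 and 2, LiCl libraries 2 and 3, PAP + LiCl library 1, PAP + ATP library 2 or PAP + ATP + LiCl library 2. Without the filter it was 0.0514 and in a fit of those groups alone 0.065.

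In PAP + LiCl against PAP leaves ABCC1 rose by 1.1 (adjusted p = 0.0315), ABCC2 by 0.69 (0.0463) and ABCC4 by 1.15 (0.0211), and each call depended on single libraries. In a fit of the compared groups alone the adjusted p was 0.0914 for ABCC2 and 0.0937 for ABCC4. ABCC1 lost it without PAP library 1 or 3 or PAP + LiCl library 1 or 3, with changes of 0.97 to 1.09 and adjusted p-values of 0.0748 to 0.111. ABCC2 lost it without any 1 of 12 libraries, with changes of 0.47 to 0.79 and adjusted p-values of 0.0506 to 0.203: all those of PAP + LiCl and PAP + ATP + LiCl, PAP libraries 1 and 3, ATP libraries 1 and 2, LiCl library 2 and control library 2. ABCC4 lost it without PAP library 2 or 3 or PAP + LiCl library 1 or 3, with changes of 0.86 to 1.07 and adjusted p-values of 0.0615 to 0.103.

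The LiCl effect averaged over its 3 pairs of groups (with minus without LiCl, over control, PAP and PAP + ATP backgrounds) rests on 18 libraries, those of the comparisons above, and is no independent evidence beside them. Of the 9 members, 6 rose and 2 fell, where 41.6% of all genes tested passed, 20.1% rising and 21.5% falling. Their median was 0.61 on the log2 scale, against 0.01 over all genes. The rises were 1.26 for ABCC7, 0.92 for ABCC1, 0.90 for ABCC4, 0.70 for ABCC2, 0.61 for ABCC3 and 0.55 for ABCC8, on the log2 scale, and each held with any single library left out. ABCC5, the vacuolar phytate transporter, fell by 0.73 (adjusted p = 0.0294) and ABCC14 by 0.83 (adjusted p = 0.029). ABCC10 was at -0.26 (adjusted p = 0.367). Over all libraries ABCC8 ranged from 6.01 to 28.7 CPM and ABCC10 from 4.05 to 17.2 CPM, and the LiCl libraries of both overlapped the control ones.

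ABCC5 and ABCC14 varied widely between the libraries of several groups without LiCl. ABCC5 averaged 32.7 ± 2.47 CPM in PAP + ATP + LiCl leaves, 40.9 ± 3.09 in PAP + LiCl leaves and 43.6 ± 3.67 in LiCl leaves, against 60.2 ± 27.0 in PAP + ATP leaves, 76.1 ± 42.2 in ATP leaves, 82.5 ± 47.9 in PAP leaves and 70.6 ± 33.2 in control leaves (SD, n = 3 each). ABCC14 averaged 70.5 ± 7.21 CPM in PAP + ATP + LiCl leaves, 125 ± 24.0 in PAP + LiCl leaves and 126 ± 16.9 in LiCl leaves, against 176 ± 72.3 in PAP + ATP leaves, 97.2 ± 28.5 in ATP leaves, 270 ± 175 in PAP leaves and 196 ± 142 in control leaves. ATP leaves, fed no LiCl, thus had a lower ABCC14 mean than LiCl and PAP + LiCl leaves. The spread was thus smaller in each LiCl-fed group than in its pair. The ABCC5 fall was lost without control library 3, PAP library 1 or 2, LiCl library 3, PAP + ATP library 3 or PAP + ATP + LiCl library 2 (-0.58 to -0.71, adjusted p 0.0514 to 0.0655). The ABCC14 fall was lost without control library 3, PAP library 1 or 2, PAP + LiCl library 2 or PAP + ATP library 3 (-0.64 to -0.78, adjusted p 0.0526 to 0.0625).

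**Figure D3:**
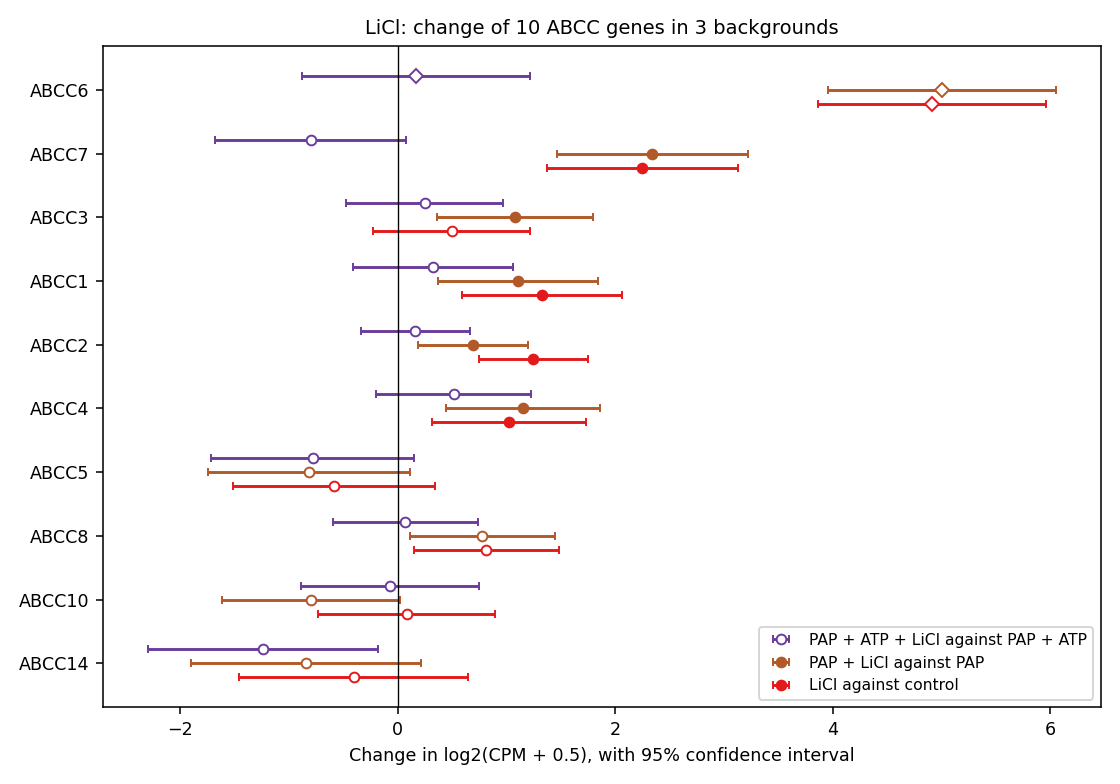
Log2 difference in level, with LiCl minus without, of the 10 genes in 3 backgrounds; bars are 95% intervals. Diamonds are ABCC6 values given without a test, and filled circles passed an adjusted p of 0.05. ABCC6 and ABCC7 are above 2 in LiCl against control and in PAP + LiCl against PAP leaves, and at 0.17 and -0.80 in PAP + ATP + LiCl against PAP + ATP leaves.

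ATP alone called none of the 9 members against control, where 7.26% of all genes tested passed in limma, 1.81% rising and 5.46% falling. Of the 9, 1 had an unadjusted p under 0.05, edgeR called 0 and DESeq2 called 1. In PAP + ATP against PAP leaves ABCC3 alone of the 9 rose, where 6.86% of all genes passed, 3.43% in each direction, while 5 had an unadjusted p under 0.05, edgeR called 1 and DESeq2 3. ABCC7 was at 1.23 ± 0.42 there (adjusted p = 0.0781), which passed with DESeq2 (0.017) and after median-of-ratios scaling (0.0425). In PAP + ATP + LiCl against PAP + LiCl leaves none of the 9 passed, where 0.113% of all genes passed, 0.034% rising and 0.0794% falling. Of the 9, 1 had an unadjusted p under 0.05, edgeR called 0 and DESeq2 1. That was ABCC7, at -1.91 ± 0.42 (adjusted p = 0.119), with adjusted p-values of 0.0418 after scaling and 0.000693 with DESeq2. In the ATP effect averaged over the control, PAP and PAP + LiCl backgrounds none of the 9 passed in limma, where 15.1% of all genes did, 5.91% rising and 9.17% falling. At an unadjusted p under 0.05 there were 3, edgeR called 0, and DESeq2 called 1 rise and 1 fall.

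**Figure D4:**
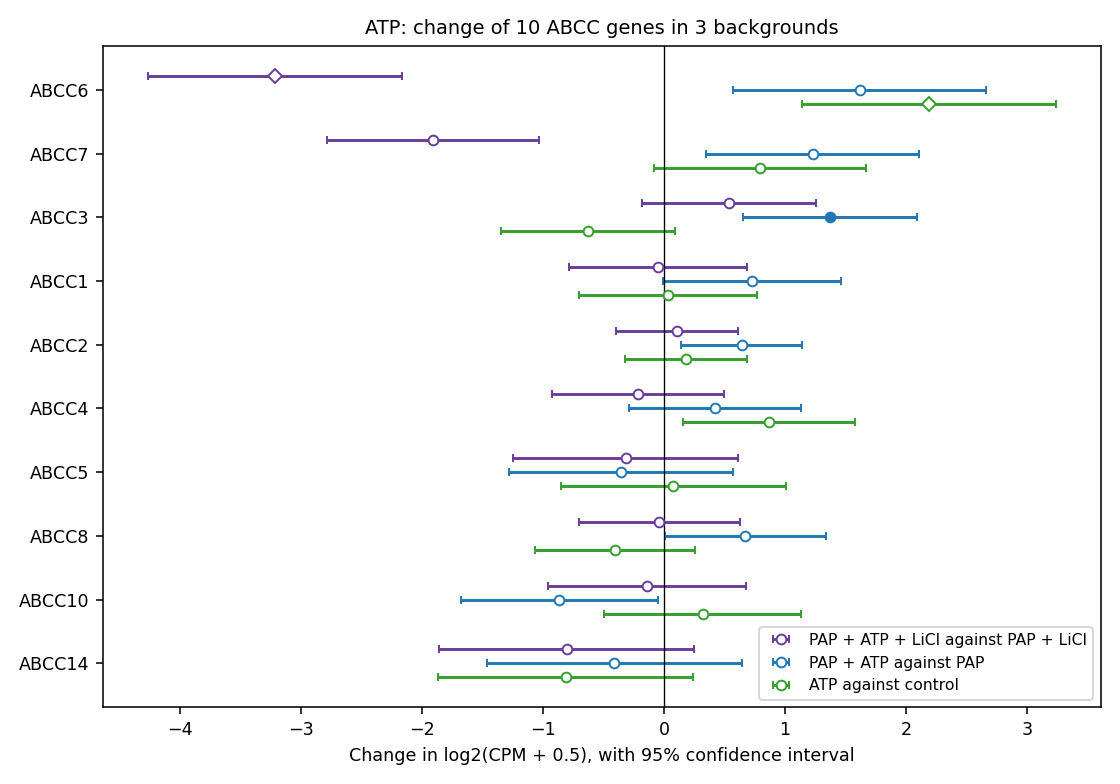
Log2 difference in level, with ATP minus without, of the 10 genes in 3 backgrounds; bars are 95% intervals. Diamonds are ABCC6 values given without a test, and circles are tested values, filled where the adjusted p was under 0.05. ABCC6 is at 2.19 in ATP against control leaves and at -3.22 in PAP + ATP + LiCl against PAP + LiCl leaves.

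PAP called none of the 9 members against control, none in PAP + LiCl against LiCl leaves and none in PAP + ATP against ATP leaves (limma), where 0% of all genes passed in each. At an unadjusted p under 0.05 there were 0, 0 and 4 of the 9. edgeR called 0 in each, and DESeq2 called 0, 0 and 1, the last being ABCC3 (1.41 in limma, adjusted p = 0.25, and 0.0177 with DESeq2). The difference between the ATP responses with and without PAP was 2.00 ± 0.48 for ABCC3 (adjusted p = 0.222).

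Per kilobase of exon, the median level over the 21 libraries was highest for ABCC14, at 23.7 CPM per kilobase, followed by ABCC1 at 11.5, ABCC5 at 7.74, ABCC7 at 7.03, ABCC3 at 5.20, ABCC2 at 4.49, ABCC8 at 2.89, ABCC10 at 1.67, ABCC4 at 1.62 and ABCC6 at 0.888. Neighbours such as ABCC5 and ABCC7 or ABCC10 and ABCC4 are not separated by their spread over libraries. The highest ABCC6 library was 216-fold above the lowest, and for the other 9 members this ratio was 3.93 to 12.1. In PAP + LiCl leaves the mean of ABCC6, 11.8 CPM per kilobase, stood below those of ABCC14 (25.1), ABCC7 (22.6) and ABCC1 (15.1), and above the other 6.

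Of the 5 ABCC genes outside the set, ABCC13 rose and ABCC9 and ABCC15 fell in the averaged LiCl effect, by 1.47 ± 0.19 (adjusted p = 9.48e-06), -1.49 ± 0.22 (4.84e-05) and -0.81 ± 0.23 (0.00923) on the log2 scale, where 20.1% of all genes rose and 21.5% fell. ABCC9 and ABCC15 share 1396 windows of 50 bases, 39.8% of those of ABCC15, so their reads may be split. ABCC11 and ABCC12, which share 101, did not pass. ABCC15 was near the floor, at 0.169 to 2.99 CPM over all libraries with a median of 0.919 CPM. ABCC9 averaged 6.50 ± 1.40 CPM in PAP + ATP + LiCl leaves and 39.9 ± 12.7 in PAP + ATP leaves (SD, n = 3 each), a fall of -2.49 ± 0.38 (adjusted p = 0.000745) in the background where ABCC6 was at 0.17.

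Genes that supply or use ABCC cargo were followed through lists. Over all genes the median of the averaged LiCl effect was 0.01 on the log2 scale, and 41.6% of genes were called, 20.1% rising and 21.5% falling. Of 5 tested genes of glutathione and phytochelatin supply (median 0.14), PCS1, the phytochelatin synthase, rose in the averaged LiCl effect (log2 1.90 ± 0.21, adjusted p = 2.21e-06) and none fell. PCS1 was at 638 to 695 CPM in PAP + ATP + LiCl leaves, 278 to 459 in PAP + LiCl leaves, 250 to 364 in LiCl leaves, 126 to 269 in PAP + ATP leaves, 143 to 167 in ATP leaves, 46.7 to 85.5 in PAP leaves and 66.7 to 223 in control leaves. It was thus highest where ATP and LiCl were combined, the group in which ABCC6 was low for a LiCl-fed group. PCS1 also rose in the averaged ATP effect (1.01 ± 0.21, adjusted p = 0.00606).

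Of 18 tested glutathione transferases, which make the conjugates (median -0.32), 1 rose and 4 fell in the averaged LiCl effect, a lower share than the 41.6% of all genes, GSTF6 by 1.57 and GSTU3 by -3.17 on the log2 scale. GSTU3 was at 0.0393 to 1.65 CPM in LiCl-fed libraries, against 3.61 to 29.2 CPM in the others. Of 6 genes of chlorophyll breakdown (median -0.59), NYE1 (-1.28), PAO (-0.96) and PPH (-0.83) fell and none rose. The 6 genes of phytate synthesis (median -0.19) had 1 fall, IPK2B (-0.66), and no rise. Of 4 genes of abscisic acid glucosylation and release (median -0.40), BG2 rose (0.81) and none fell in limma. BG1 was at -0.97 there (adjusted p = 0.0519), and edgeR and DESeq2 each called 1 fall in this list. In the averaged ATP effect (median over all genes -0.05, 5.91% rising and 9.17% falling) 2 transferases rose and 2 fell, and UGT71B6, which glucosylates abscisic acid, rose (1.27, adjusted p = 0.0232). In the averaged PAP effect no list had a call in limma, where 0% of all genes passed. None of the 9 members passed it either, with 1 at an unadjusted p under 0.05 and 0 called by edgeR and by DESeq2.

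The genes whose 7 group means were most like those of ABCC6, of 17439 compared, were SIS, AT4G31805, AT2G32235, NAC036, AT1G72530, EDA25, ATTPPA and AT1G61860. The measure was the root mean square difference of group means of log2(CPM + 0.5), each gene centred on its own mean. It was 0.75 for SIS and 0.94 for AT1G61860. ABCC7 ranked 20th at 1.06 and ABCC3 2910th at 1.72. After scaling 7 of the 8 were again among the nearest, and with a pseudocount of 2, 6 were. EDA25 also had a low mean in PAP + ATP + LiCl leaves, 27.8 ± 15.7 CPM, against 165 ± 61.6 CPM in PAP + LiCl leaves (SD, n = 3 each). AT1G61860 was likewise below its own mean there, with a centred log2 value of -0.45, against 2.64 in PAP + LiCl leaves. The rest of the 8 were above their own means in PAP + ATP + LiCl leaves, at 0.47 to 1.74.

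**Figure D5:**
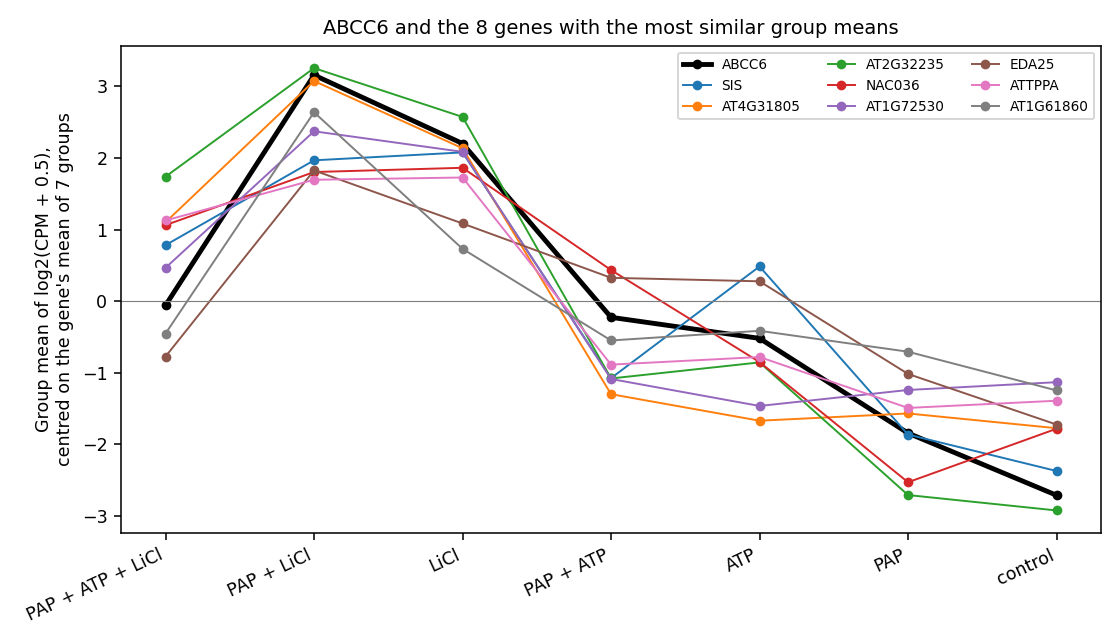
Group means of log2(CPM + 0.5), each gene centred on its mean over the 7 groups, for ABCC6 (thick line) and the 8 genes most like it; groups run from PAP + ATP + LiCl at the left to control at the right. ABCC6 spans 5.87 on this scale, with its highest mean in PAP + LiCl and its lowest in control leaves.

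Markers of the other cell types in a leaf were checked. The summed level of 4 mesophyll markers was 11943 to 21745 CPM in PAP + ATP + LiCl libraries, 14801 to 22742 in PAP + LiCl, 11313 to 24557 in LiCl, 10633 to 19314 in PAP + ATP, 13283 to 25244 in ATP, 12286 to 22829 in PAP and 9673 to 19671 in control libraries. Of these 4, RCA rose in LiCl against control leaves (log2 1.19, adjusted p = 0.0451) and in the averaged LiCl effect (0.70, adjusted p = 0.0212), and the other 3 did not pass in either. SUC2, which marks phloem companion cells, was at 211 to 249 CPM in PAP + ATP + LiCl libraries, 206 to 222 in PAP + LiCl, 180 to 214 in LiCl, 152 to 216 in PAP + ATP, 152 to 167 in ATP, 73.9 to 98.9 in PAP and 47.4 to 118 in control libraries. It rose in the averaged LiCl effect (0.99, adjusted p = 2.91e-05) and ATP effect (0.76, adjusted p = 0.00338), and the part of SUC2 and RCA in the ABCC results was not tested. The 2 guard cell markers summed to 8.38 to 85.4 CPM over all libraries and neither passed in the averaged LiCl effect. The epidermal marker ATML1 did not pass there. The root marker PYK10 was at most 0.675 CPM or had no value, and the epidermal marker PDF1 had values only in PAP + ATP + LiCl leaves.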

How the data were processed

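The submitters' processing notes name Subread, featureCounts and TAIR10, with no versions; the library kit did not mark strand. The authors deposited 1 table of CPM (reads scaled to the library total, per the labels) with 21 columns. Column names give the group but not the replicate number, so libraries are numbered by column within a group. Within a tolerance of 1e-06, 100.0% of values were whole reads, and reads were recovered from them. Of 21156 genes, 2926 lacked values in all 3 libraries of at least 1 group; such values were treated as absent. No replicate pair agreed within sampling noise (chi-square per degree of freedom 24.2 to 253).

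A limma 3.58.1 fit (R 4.3.3) of log2(CPM + 0.5), 1 mean per group over all 21 libraries, with an intensity-dependent prior, covered the 17794 genes that reached 1 CPM in 3 or more libraries. Two-sided p-values were adjusted by the Benjamini-Hochberg method across the whole table in each of 15 comparisons, with a threshold of 0.05. Comparisons share control, PAP and other libraries, so they are not independent of one another. Alternatives were pseudocounts of 0.1 and 2, median-of-ratios scaling, omitting the filter or asking for a mean of 5 CPM, fitting the compared groups alone, leaving out single libraries, and edgeR 4.0.16 and DESeq2 1.42.0 on the recovered reads (17440 genes). The procedure was tested on simulated data. Gene positions and sequences came from RefSeq TAIR10.1. The members and lists were chosen with earlier results of these data known. Named were all 10 members, the 5 other ABCC genes, the 3 genes on each side of the cluster, up to 3 called genes a list and comparison by smallest p, and the 8 genes most like ABCC6.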

Additional observations from a re-analysis of the deposited data

How the results depend on the processing

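No paired analysis was possible because the columns carry no replicate numbers of the labels. The 8 alternatives and 21 left-out libraries gave 1246 values for the 43 member results. Of these, 57 lost the call, 16 gained one and 10 turned sign. Another 12, without a test, moved by at least a fixed multiple of the SE of the difference. The other 1151 did none of these. The sign changes were in 3 results, of which none was called: ABCC3 in PAP + LiCl against LiCl leaves (-0.01) became 0.056 after scaling, 0.034 with edgeR and 0.039 with DESeq2, and ran from -0.17 to 0.24 with single libraries left out. ABCC6 in PAP + ATP against ATP leaves (0.29) ran from -0.16 to 0.79, and in PAP + ATP + LiCl against PAP + ATP leaves (0.17) from -0.41 to 0.65. Its log2 difference in ATP against control leaves ran from 1.69 to 2.65 with single libraries left out, and was 1.28 with a pseudocount of 2 and 3.46 with edgeR.

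Counts of genes called, over all genes, moved by over 1.5 times as follows, and the cause was not tested. With only the compared groups fitted, where fewer samples inform the spread, calls were 1162 in LiCl against control (3102 in the main fit), 15 in ATP against control (1283), 8 in PAP + ATP against PAP (1212), 0 in PAP + ATP + LiCl against PAP + LiCl (20) and 1 in the ATP by LiCl interaction (5). DESeq2 gave 2587 in PAP + ATP + LiCl against PAP + ATP (1667), 2536 in PAP + ATP against PAP, 136 in PAP + ATP + LiCl against PAP + LiCl, 1 in PAP against control (0), 128 in PAP + ATP against ATP (0), 2 in the averaged PAP effect (0), 4 in the PAP by LiCl interaction (0), 121 in the ATP by LiCl interaction and 158 in the PAP by ATP interaction (0). edgeR gave 3168 in LiCl against control and 3923 in PAP + LiCl against PAP (3811), close to limma, and 811 in ATP against control and 18 in the ATP by LiCl interaction. A mean CPM of at least 5 gave 846 in ATP against control, 3 in PAP + ATP + LiCl against PAP + LiCl, 3 in the ATP by LiCl interaction and 1 in the PAP by ATP interaction. That ATP by LiCl count was 2 with a pseudocount of 0.1, 13 with 2, 10 with no filter and 21 after scaling.

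With single libraries left out, calls ranged from 1754 to 3604 in LiCl against control, 2389 to 4116 in PAP + LiCl against PAP, 722 to 1873 in PAP + ATP + LiCl against PAP + ATP, 286 to 1812 in ATP against control, 98 to 2029 in PAP + ATP against PAP, 0 to 26 in PAP + ATP + LiCl against PAP + LiCl, 0 to 4 in PAP against control, 0 to 4 in PAP + ATP against ATP, 6422 to 7613 in the averaged LiCl effect, 1699 to 3465 in the averaged ATP effect, 0 to 25 in the ATP by LiCl interaction and 0 to 310 in the PAP by ATP interaction.

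With median-of-ratios scaling the median difference over all genes shifted by 0.20 in ATP against control and -0.17 in the PAP by ATP interaction, and the share of calls that rose in ATP against control to 55.2%, against 24.9% unscaled, and in the averaged ATP effect to 53.7%, against 39.2%. In PAP + ATP + LiCl against PAP + LiCl it was 20.0%, against 30.0%. ABCC6 in control leaves rests on 7 to 13 reads, so its ratio to control depends on the pseudocount: the LiCl against control difference was 5.72 with 0.1 and 3.60 with 2.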
